A study of Mus musculus with 8 samples.

Results

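The cytosolic ribosomal protein genes were the entries of the gene table whose symbols begin with Rpl or Rps and a number, together with the stalk genes Rplp0, Rplp1 and Rplp2 and with Rpsa, leaving out the Rps6k kinases. This rule found 90 of the 11367 genes. Of these, 46 encode proteins of the large subunit and 31 proteins of the small subunit, 5 are paralogues (Rpl3l, Rpl22l1, Rps27l, Rpl36al and Rpl7l1), 7 are retrocopy or pseudogene entries, and 1, Rps19bp1, encodes a protein that binds Rps19 and is not a ribosomal protein. The RNA of ventricular cardiomyocytes from adult C57BL/6 mice was sequenced in 8 libraries. Of these, 4 came from cells kept for 24 hours in M199 medium (control medium) and 4 from cells kept for 24 hours in M199 that had been conditioned by CCR2+ cardiac macrophages (conditioned medium). The macrophages were sorted from the hearts of Ccr2gfp/+ mice 4 weeks after transverse aortic constriction (TAC), which loads the heart with pressure. Both media carried blebbistatin, insulin-transferrin-selenium and CD lipid. The macrophages were sorted into M199 with serum, whereas the control is described as M199 alone, so macrophage products and serum carried over cannot be told apart. The sources do not state whether the 4 libraries of a medium are from different animals, and p values thus rest on a spread between libraries that could be purely technical.

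A ribosome joins a small subunit, which reads the mRNA, and a large subunit, which forms the peptide bond. Each holds ribosomal RNA and many proteins, most of them present in equal amounts, and the genes for these proteins lie scattered over the genome. Their mRNAs are among the most abundant of any cell and typically start with a C followed by an unbroken run of pyrimidines, the 5′ terminal oligopyrimidine (TOP) tract, through which the mTOR pathway and the protein Larp1 set how strongly they are translated. In the heart, protein synthesis rises in hypertrophic growth, and 1 paralogue, Rpl3l, is known as a form of Rpl3 restricted to striated muscle.

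The 77 subunit genes measured here lie on 19 chromosomes, and 4 of them are X-linked. The start sequences are shown because the TOP tract is the feature that these mRNAs are known to share. RefSeq (GRCm38.p6) gave a promoter for 57 of the 77 genes. A C at the annotated start followed by at least 4 further C or T, read on the strand of the gene, stood at 13 of these 57 (22.8%), against 3.01% of the 27025 genes with a promoter. A looser form, a C followed by at least 6 further C or T and beginning within 10 bases of the start, stood at 27 of 57 (47.4%), against 14.1% of all genes. The windows run from 5 bases before the start, with the tract from the annotated start in capitals.
Rpl38 (chr11:114668575-114668599, plus strand): tcgttCTTTCCCCgttctcttcggt
Rpl28 (chr7:4792960-4792984, plus strand): tgtctCTCTTTCCgtctccggccgc
Rpl15 (chr14:18270967-18270991, minus strand): gccttCTTCCTTTCCTCTggcggca
Rps6 (chr4:86857348-86857372, minus strand): cgggcCTCTTTTTCgtgacgcctcc
Rps27 (chr3:90213629-90213653, minus strand): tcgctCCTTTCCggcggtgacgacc
Rplp2 (chr7:141447646-141447670, plus strand): tcttcCTTTCgccgccggacgccgc
Rpl3l (chr17:24727821-24727845, plus strand, no tract at this start): gctctgtcatttgacctctggtgcc
Rps27l (chr9:66946081-66946105, plus strand, no tract at this start): ccgccgcctctatcccggaagttgc

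Further motifs were counted on both strands of the window from 250 bases before to 50 after the start. CCGGAAG, which Ets factors bind, was found for 24 of the 57 subunit genes (42.1%) and 9.93% of all genes. GGGCGG, which Sp factors bind, was found for 35 of 57 (61.4%) and 38.2% of all genes. TATAAA, the TATA box, was found for 6 of 57 (10.5%) and 15.7% of all genes. These are matches of letters in a window around an annotated start and carry no measurement from the cells.

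The depth reached in each library is unknown, since FPKM (fragments per kilobase of exon, relative to all fragments) carry no read totals. Conditioned-medium replicate 4 stood apart from the other libraries: mitochondrially encoded genes made up 63.0% of its FPKM sum, against 30.2% to 40.7% in the other 7. The cardiomyocyte markers were present in every library (8 of 8 listed, with summed FPKM of 3982 to 6788 in control medium and 2032 to 5247 in conditioned medium), and their lowest sum was that of conditioned-medium replicate 4. Markers of endothelial cells were also present, with sums of 150.4 to 335 in control medium and 333 to 671 in conditioned medium and higher means in conditioned medium for 16 of 16. The means were also higher for 10 of 10 fibroblast markers, 12 of 12 macrophage entries and 6 of 8 mural markers, and lower for 8 of 8 cardiomyocyte markers (median log2 fold change −0.48). The macrophage sums were 24.2 to 177 in control medium and 162 to 171 in conditioned medium, and Ptprc, Fcgr1, Ccr2 and Cx3cr1 were not among the listed genes. A positive log2 fold change was found for 53.9% of all genes. At an adjusted p under 0.05, 1 fibroblast marker was higher and no other marker passed in either direction (limma), where 0.554% of all genes were higher. Control replicates 2 and 4 were the lowest in endothelial and fibroblast markers. Fewer cells of a type and less RNA per cell cannot be told apart in such libraries. No member was called with or without these libraries, and the plot of fold changes shows each subunit gene with and without conditioned-medium replicate 4.

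Together the 77 subunit genes made up 6.67%, 5.42%, 5.49% and 6.08% of the FPKM sum in control replicates 1 to 4. They made up 6.34%, 5.76%, 6.24% and 3.76% in conditioned-medium replicates 1 to 4. The lowest share was that of conditioned-medium replicate 4, and the other 3 conditioned libraries lay inside the control range. The group means were 5.91% ± 0.585 in control medium and 5.52% ± 1.20 in conditioned medium (SD, n = 4 each). As a share of the nuclear-encoded genes alone, the values were 9.56%, 8.57%, 8.34% and 10.2% in control medium. They were 9.76%, 8.72%, 9.02% and 10.2% in conditioned medium, so that conditioned-medium replicate 4 was then level with the highest library. The means on this scale were 9.18% ± 0.887 and 9.42% ± 0.670. The lower share in that library thus depended on whether the mitochondrial transcripts were counted in the sum.

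The subunit genes moved from library to library as a block. For each gene the deviation of log2(FPKM + 1) from its mean over the 8 libraries was taken. The median deviation of the 77 genes was 0.16, −0.06, −0.13 and 0.15 in control replicates 1 to 4 and 0.13, −0.02, 0.09 and −0.35 in conditioned-medium replicates 1 to 4. Within a library, the 77 deviations had an SD of 0.06 to 0.12. For 737 other nuclear-encoded genes of the same range of abundance this SD was 0.15 to 0.60. All 77 genes lay below their mean in control replicate 3 and in conditioned-medium replicate 4. In the latter library the other 737 genes had a median deviation of −0.70, against −0.35 for the subunit genes. With each library set to the same sum over nuclear-encoded genes, the median of the subunit genes in conditioned-medium replicate 4 became 0.15. The large and small subunits shifted alike, with medians of −0.38 and −0.33 in that library on the scale as deposited.

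**Figure D1:**
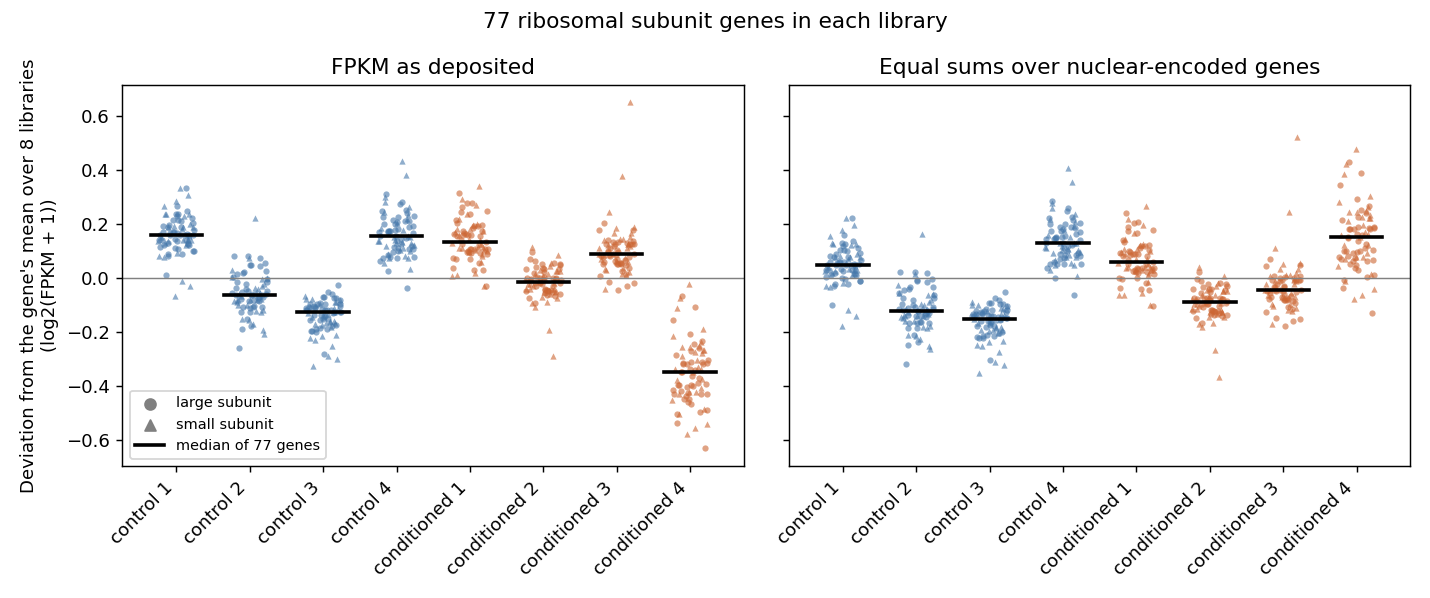
Deviation of each of the 77 subunit genes from its own mean over the 8 libraries on the log2(FPKM + 1) scale, for FPKM as deposited (left) and after each library was set to the same sum over nuclear-encoded genes (right). Circles are large subunit genes, triangles small subunit genes and black lines medians. Conditioned 4 has the lowest median as deposited (−0.35) and the highest on the nuclear scale (0.15).

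The comparison of the media asked whether factors released by these macrophages changed the expression of ribosomal protein genes in cardiomyocytes. No member passed the threshold. In limma, with Benjamini-Hochberg adjustment over the whole gene table and a threshold of 0.05, 0 of the 90 were higher in conditioned medium and 0 were lower, where 0.554% of all genes were higher and 0.0% lower. At an unadjusted p under 0.05 the members gave 0 in either direction, against 8.78% of all genes higher and 0.845% lower. In all 90 genes the FPKM of the groups overlapped, whereas conditioned medium was above control in every library for 5.08% of all genes and below it for 1.46%. The median log2 fold change, conditioned minus control, was −0.07 for the 77 subunit genes and 0.02 for all genes.

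Of the 77 subunit genes, 12 had a positive and 65 a negative log2 fold change, from −0.22 for Rpl38 to 0.14 for Rps20. This sign rested on 1 library: conditioned-medium replicate 4 was the lowest of all 8 for 69 of the 77 genes. Without it, 59 of 77 were positive and the median was 0.03. All genes moved in the same way: without that library 76.7% of them were positive and their median was 0.12. The median of the subunit genes was thus below that of all genes with and without it. The sign also turned with the scaling, since with equal sums over nuclear-encoded genes 66 of the 90 members were positive, against 17 of 90 as deposited. On that scale 66.9% of all genes were positive, against 53.9% as deposited. The medians of the large subunit (−0.08, 46 genes) and small subunit (−0.06, 31 genes) were close. The 95% intervals from limma lay within a 2-fold change in either direction for all 77 genes, with bounds from −0.69 to 0.62, and within 1.5-fold for 73. The smallest adjusted p of a subunit gene was 0.756, for Rpl38 (limma).

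**Figure D2:**
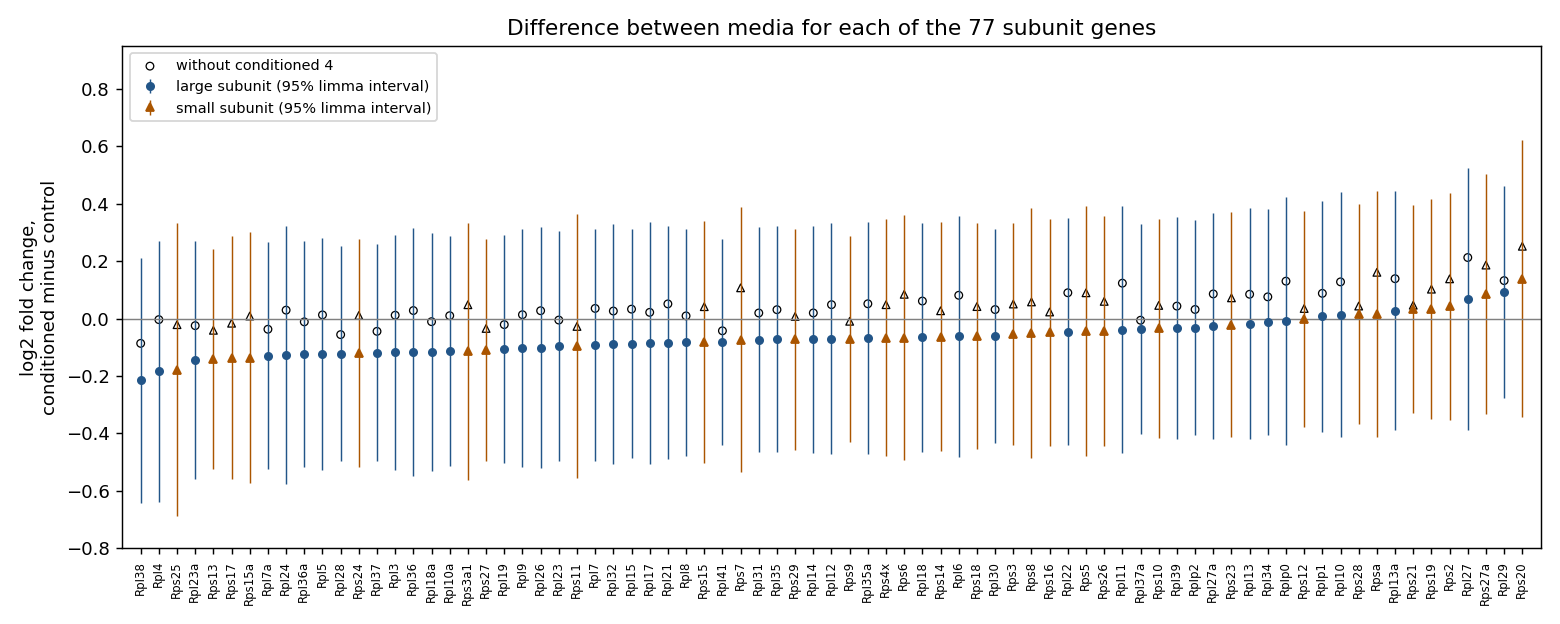
Log2 fold change (conditioned minus control) of each of the 77 subunit genes with its 95% limma interval, ordered by size; open symbols give the value without conditioned-medium replicate 4. Every interval crosses 0, and most open symbols lie above the filled ones.

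The ribosomal stalk, formed by Rplp0 and the acidic proteins Rplp1 and Rplp2, recruits the elongation factors. Rplp1 was the most abundant member, with FPKM of 1026, 853, 814 and 991 in control medium and 1038, 918, 971 and 781 in conditioned medium. The groups overlapped, and the log2 fold change was 0.01 ± 0.18 (SE, adjusted p = 0.991, limma). Rplp0 had 640.1, 555, 563 and 681 in control medium against 718, 614, 667 and 452 in conditioned medium. The highest and the lowest value were both from conditioned medium, and the log2 fold change was −0.01. Rplp2 ranged from 119 to 153 in control medium and from 115 to 139 in conditioned medium, with a log2 fold change of −0.03.

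Among the large subunit proteins, Rpl5 and Rpl11 form a particle with the ribosomal RNA of the same subunit that binds Mdm2 when ribosome assembly fails. Rpl5 had FPKM of 176, 162, 149 and 168 in control medium and 167, 160.1, 167 and 113 in conditioned medium. Rpl11 had 128, 112, 102 and 119.5 against 126, 119, 131 and 79.7. In both genes, conditioned-medium replicate 4 was the lowest of the 8 libraries and the others were mixed. The log2 fold changes were −0.12 and −0.04, and 0.01 and 0.12 without that library. Rpl13a, which in human cells is released from the ribosome on interferon stimulation and then silences some inflammatory mRNAs, had 228, 183, 178 and 219.9 in control medium. It had 246, 200.2, 221 and 163 in conditioned medium, with a log2 fold change of 0.03 (95% interval −0.39 to 0.44). Rpl38, needed in mouse embryos for the translation of a subset of Hox mRNAs, had 480.1, 426, 369 and 477 in control medium and 431, 404, 396 and 286 in conditioned medium. The groups overlapped, and its log2 fold change of −0.22 ± 0.19 (SE), the lowest of the subunit genes, became −0.09 without conditioned-medium replicate 4. Rpl4 and Rpl8, which contact the RNA core of the large subunit, had log2 fold changes of −0.18 and −0.08, and Rpl36, the second most abundant large subunit gene by gene FPKM, one of −0.12. Rpl29, a small protein at the surface of the subunit, had the highest value of its subunit, 0.09, with FPKM of 119 to 145 in control medium and 128 to 164 in conditioned medium.

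In the small subunit, Rps6 is the protein that S6 kinases phosphorylate downstream of mTOR. Its FPKM were 394, 352, 329.7 and 391 in control medium and 384, 379, 401 and 255 in conditioned medium, the highest and the lowest value being from conditioned medium. The log2 fold change was −0.07 ± 0.20 (SE, adjusted p = 0.926, limma). Rps27a, made as a fusion with ubiquitin, had 204, 166, 157.5 and 194 in control medium against 227, 172, 219 and 155 in conditioned medium. Conditioned-medium replicates 1 and 3 were above and replicate 4 below every control library, and the log2 fold change was 0.09. Rps20 had 48.4, 36.3, 34.0 and 43.0 in control medium and 41.2, 39.9, 66.6 and 34.8 in conditioned medium, and its log2 fold change of 0.14, the highest of the subunit genes, became −0.05 without replicate 3. Rps3, a protein of the mRNA entry channel that also takes part in DNA repair, had a log2 fold change of −0.05. It was 0.02 for Rpsa, which doubles as the laminin receptor, 0.03 for Rps19, mutated in human Diamond-Blackfan anemia, and −0.06 for Rps14, lost in the human deletion that causes a form of myelodysplasia. Rps3a1 and Rps15, among the 5 most abundant members, had −0.11 and −0.08.

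The level of a member depended on the length to which its fragments were related. As deposited per gene, FPKM of the 77 subunit genes ranged from 43.0 for Rps20 to 924 for Rplp1 (means of 8 libraries), with a median of 177. All 77 lay above the median of all genes, 4.78, and 20 were among the 100 most abundant genes. When the FPKM of the listed transcripts were summed per gene, the 77 ranged from 44.7 to 971 with a median of 396. The sum was at least 2 times the gene value for 36 of 77. Rps24 had 93.3 as gene FPKM and 801 as a sum of transcripts, whereas Rplp1, with 1 listed transcript, had 924 on both scales. The SD of the log2 level over the 77 genes was 1.02 by gene and 0.85 by transcript sum. The annotated exons of Rps24 cover 6256 bases together and its main transcript 525. Comparisons between genes therefore depend on the scale. When the gene FPKM of 1 gene is compared between media, the annotated length is the same in both.

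**Figure D3:**
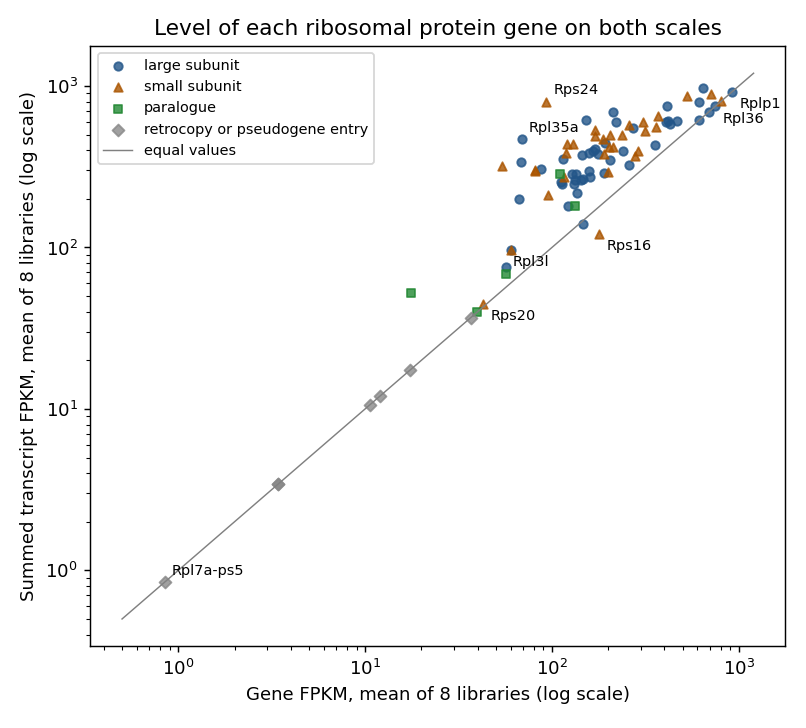
Gene FPKM against summed transcript FPKM (means of 8 libraries, both axes logarithmic) of the large and small subunit genes, the paralogues and the retrocopy or pseudogene entries; the line marks equal values. Most subunit genes lie above the line, with Rps24 (93.3 against 801) farthest from it.

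Paralogues can replace the main protein in part of the ribosomes. The log2 ratio of paralogue to main gene was therefore compared within each library, which leaves out any factor common to both genes, by a two-sided exact permutation test over 70 arrangements of the libraries (smallest possible p = 0.0286). Rpl3l had FPKM of 43.6, 66.9, 60.1 and 81.9 in control medium and 46.7, 61.6, 66.9 and 24.3 in conditioned medium. Rpl3, the main form, had 149, 119, 120.4 and 141 in control medium and 135, 129.7, 134 and 92.4 in conditioned medium. Rpl3l was lowest in conditioned-medium replicate 4 and then in control replicate 1, which also had the lowest summed cardiomyocyte markers of their groups (2032 and 3982). The part of cell composition in Rpl3l was not tested. Rpl3l stood at 48.3% of Rpl3 in control medium and 39.6% in conditioned medium by gene FPKM, and at 26.5% and 21.6% by transcript sums. The log2 ratio differed by −0.28 between media (exact permutation p = 0.343, adjusted over the 5 pairs p = 0.571), by −0.10 without conditioned-medium replicate 4, by −0.50 without control replicate 1 and by 0.0092 without control replicates 2 and 4. The difference in Rpl3l itself, −0.39, became −0.09 without conditioned-medium replicate 4.

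Rps27l, a paralogue of Rps27 that p53 induces in human cells, had FPKM of 163, 122, 95.5 and 119 in control medium and 169, 117.6, 159 and 119 in conditioned medium. It stood at 71.1% of Rps27 in control medium and 86.7% in conditioned medium by gene FPKM, and at 32.8% and 41.5% by transcript sums. The log2 ratio by gene FPKM was higher by 0.29 (exact permutation p = 0.143, adjusted p = 0.571). This was the smallest p of the 5 pairs, and the groups overlapped. Rpl22l1, the paralogue of Rpl22, had 17.1 ± 2.79 in control medium and 18.2 ± 2.43 in conditioned medium (SD, n = 4 each), and its log2 ratio to Rpl22 differed by 0.13 (exact permutation p = 0.314). It stood at 29.9% of Rpl22 in control medium and 32.8% in conditioned medium by gene FPKM, and at 65.0% and 73.5% by transcript sums. Rpl36al, an autosomal copy of the X-linked Rpl36a, exceeded its main gene in every library, at 165% in control medium and 167% in conditioned medium by gene FPKM (log2 ratio difference 0.02, exact permutation p = 0.514). By transcript sums it stood at 140% and 143%. Rpl7l1, a relative of Rpl7 that in yeast has a counterpart acting in ribosome assembly, stood at 22.5% of Rpl7 in both media (difference 0.01, exact permutation p = 0.971).

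**Figure D4:**
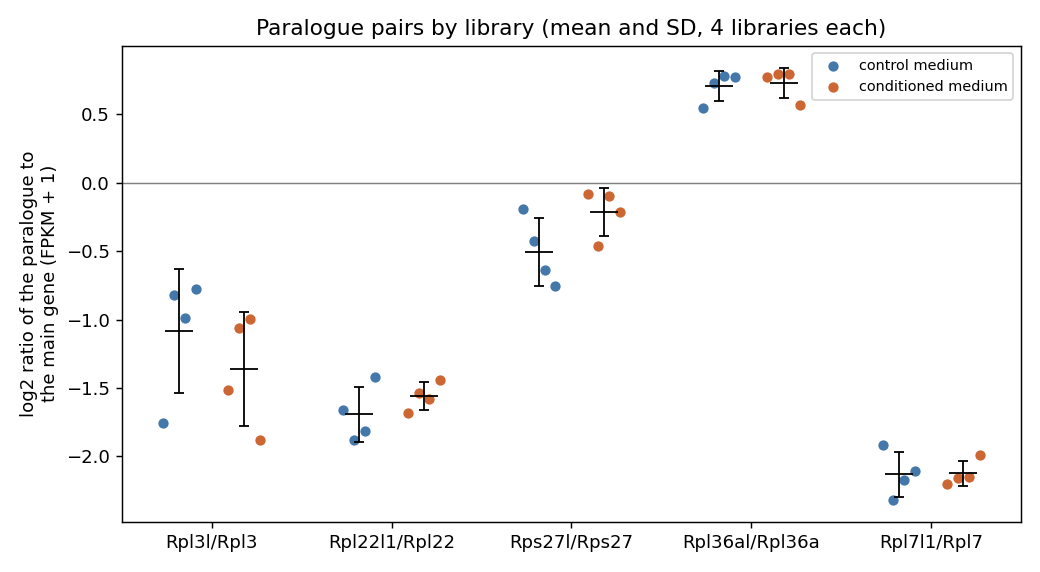
Log2 ratio of each paralogue to its main gene in every library (FPKM + 1), with the mean and SD of the 4 libraries of each medium. The groups overlap in all 5 pairs, and Rpl36al is the only paralogue above its main gene (0).

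The 7 retrocopy or pseudogene entries had mean FPKM from 0.847 for Rpl7a-ps5 to 36.7 for Rpl10-ps3. Reads from the main gene can be assigned to such copies. Over the aligned stretch, the GENCODE M21 transcripts of Rpl10-ps3, Rps12-ps3, Rpl27-ps3 and Rps27rt were identical to their main genes, with unbroken identical stretches of 737, 494, 411 and 341 bases. Their gene FPKM were 22.2%, 14.7%, 7.05% and 6.27% of those of Rpl10, Rps12, Rpl27 and Rps27. Rpl36a-ps1 (98.4% identical) had the smallest unadjusted p of all 90 members, with FPKM of 5.13, 4.82, 3.49 and 2.87 in control medium and 2.90, 3.11, 3.48 and 1.43 in conditioned medium. The groups overlapped, and the log2 fold change of −0.46 ± 0.23 (SE) did not pass (adjusted p = 0.563, limma). Without conditioned-medium replicate 4 it was −0.26. By log2 fold change, Rpl36a-ps1 was followed by Rpl3l (−0.39), Rpl27-ps3 (−0.36) and Rpl10-ps3 (−0.25), and the highest values were those of Rps27rt (0.19) and Rps27l (0.18), none of which passed. Rpl27-ps3 became −0.17 without that library. The 5 paralogues are less alike, with identical stretches of at most 26 bases. For Rps19bp1 the log2 fold change was −0.22 (adjusted p = 0.801, limma), or −0.02 without conditioned-medium replicate 4.

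The transcript table listed 219 transcripts of the members. Of these, 0 passed an adjusted p under 0.05 (limma over 21301 transcripts, of which 0.061% were higher and 0.00469% lower), and at an unadjusted p under 0.05, 2 were higher and 4 lower, against 4.37% and 1.96% of all transcripts. A single transcript was listed for 31 of the 77 subunit genes and more than 1 for 46. The most abundant transcript of a gene had a share of the summed FPKM that did not overlap between the media for 2 of these 46 genes, Rps24 (lower in conditioned medium) and Rpl29 (higher). Among all 5110 genes with 2 or more listed transcripts, 1.8% were lower and 1.51% higher in this way. The subunit genes, with 1 of 46 in each direction, were thus near the share of all genes. In FPKM, 3 of the 219 member transcripts were above and 2 below control in every library, against 3.3% and 1.54% of all transcripts. Rps24, Rpl29 and their transcripts were chosen after their values were seen.

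Rps24, a protein of the small subunit mutated in some patients with Diamond-Blackfan anemia, is known to be spliced into forms that differ in very small exons around the stop codon, in proportions that vary between tissues. The main transcript, Rps24-205, holds an exon of 18 bases (chr14:24494052-24494069, plus strand, GRCm38, GENCODE M21) that Rps24-202 lacks. Its first 3 bases are coding and the stop codon follows, whereas in Rps24-202 the stop codon opens the next exon (chr14:24495430-24495449, 20 bases, untranslated after the stop). The junctions are shown because the forms differ here, with the last 12 bases of the preceding exon in lower case. The 18 bases that follow are in capitals, which for Rps24-202 are the first 18 of the 20 bases of that exon.
Rps24-205: gctggcaaaaagAAATGAAATACCTAGCAG
Rps24-202: gctggcaaaaagTGAGTGGAGATTGGATAC

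Rps24-205 made up 84.4%, 89.0%, 85.7% and 87.5% of the summed Rps24 FPKM in control medium. Its share was 80.9%, 82.8%, 82.5% and 56.2% in conditioned medium. Every conditioned library was below every control library, and replicate 4 was far below the other 3. The means were 86.6% ± 2.02 and 75.6% ± 13.0 (SD, n = 4 each), a difference of −11.0 percentage points, or −4.55 without conditioned-medium replicate 4. Rps24-202 took 5.95%, 3.67%, 5.40% and 4.27% in control medium and 8.15%, 7.48%, 7.74% and 20.5% in conditioned medium. Rps24-210, a form of 1613 bases that lacks both small exons and has its stop codon in the last exon, took 3.26% to 4.23% against 4.78% to 17.6%. In FPKM, Rps24-202 had 51.5, 30.7, 41.6 and 38.5 in control medium and 72.1, 60.0, 65.1 and 103 in conditioned medium. The groups did not overlap, as for 3.3% of all transcripts with the conditioned libraries higher, and the log2 fold change of 0.86 had an unadjusted p of 0.0041 and an adjusted p of 0.532 (limma), which did not pass. The summed FPKM of Rps24 was 843 ± 56.0 in control medium and 758 ± 172 in conditioned medium (SD, n = 4 each). Without conditioned-medium replicate 4 (505) the conditioned mean was 843.

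The endothelial markers were among the values that set the same libraries apart. Their mean deviation over the list, on the log2 scale, was 0.08, −0.43, −0.08 and −0.98 in control replicates 1 to 4 and 0.31, 0.09, 0.10 and 0.90 in conditioned-medium replicates 1 to 4. As for Rps24-202, the highest value was in conditioned-medium replicate 4. Control replicates 2 and 4 were the lowest of their group for both, though in the opposite order. Fibroblast (−0.85 and −0.47), macrophage (−1.16 and −0.26) and mural markers (−0.58 and −0.55) were also lowest among the control libraries in replicates 2 and 4. For these lists the order of the control libraries was that of Rps24-202. Conditioned-medium replicate 4 was also lowest in the cardiomyocyte markers (mean deviation −1.32) and highest in the mitochondrial share (63.0%). Its mean deviations for fibroblast (0.22), macrophage (0.26) and mural (−0.25) markers were not the highest. The part of cell composition in the transcript shares was not tested. Rpl29-203 made up 54.4%, 58.6%, 56.9% and 57.8% of the summed Rpl29 FPKM in control medium and 61.5%, 64.8%, 58.8% and 81.0% in conditioned medium. The groups nearly met at 58.6% and 58.8%, and conditioned-medium replicate 4 was again the farthest. For the FPKM of Rpl29-203 the log2 fold change was 0.30 (adjusted p = 0.778, limma).

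**Figure D5:**
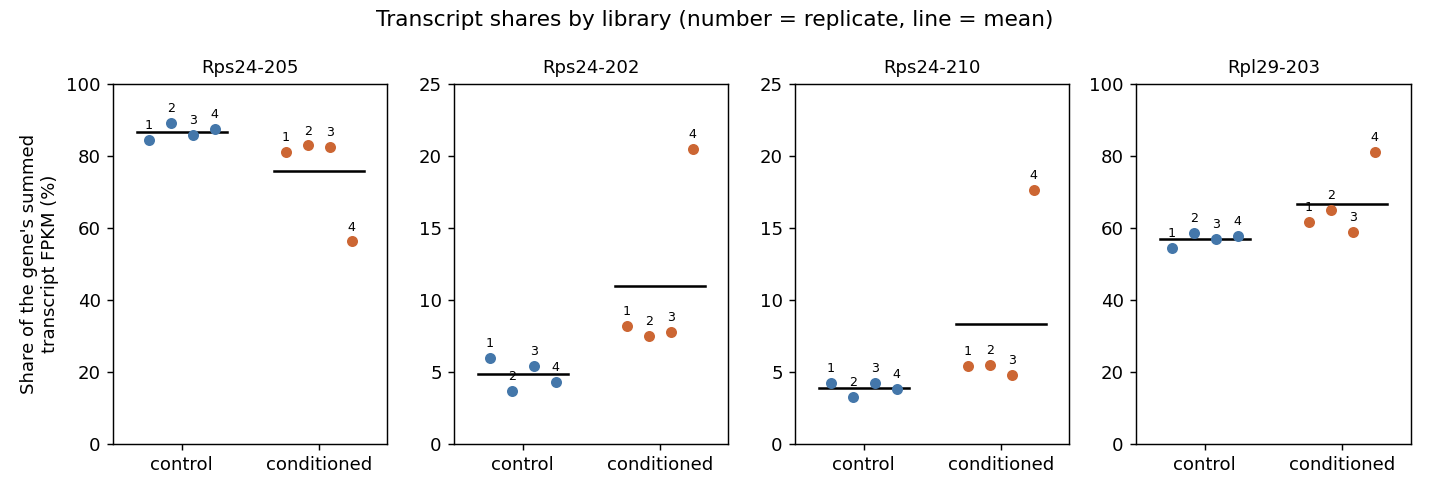
Share of the summed transcript FPKM of its gene, in percent, for 3 transcripts of Rps24 and 1 of Rpl29 in each library, with the replicate number beside each point and a line at the mean. The conditioned libraries are below control for Rps24-205 and above it for the other transcripts, and conditioned-medium replicate 4 lies farthest out.

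Other genes of the translation machinery were described from lists. Of 19 translation factors and related genes listed from general knowledge as TOP mRNAs (3 of the 13 with a RefSeq promoter had the tract at the annotated start, and 6 the looser form), 0 passed in either direction (limma, 0 also at an unadjusted p under 0.05), with a median of −0.14 and 2 positive. The most abundant, Eef2, which moves the ribosome along the mRNA, had FPKM of 561, 561, 580.3 and 581 in control medium and 556, 527, 542 and 343 in conditioned medium (log2 fold change −0.24, or −0.08 without replicate 4). Eef1a1, which brings tRNA to the ribosome, had a higher mean in conditioned medium, 486 against 371 (log2 fold change 0.40 ± 0.21 SE, adjusted p = 0.593, limma). Of 31 genes of ribosome assembly 0 passed (0 at an unadjusted p under 0.05), with a median of −0.21 and 1 positive. Tsr1, an assembly factor of the small subunit, had −0.58 ± 0.35 (SE), or −0.14 without conditioned-medium replicate 4, and Ncl, the nucleolar protein nucleolin, −0.27, or −0.04 without it. Of 13 genes that control the translation of TOP mRNAs 0 passed (0 at an unadjusted p under 0.05), with a median of −0.17. Larp1, which binds the TOP tract, had 54.9 ± 1.74 in control medium and 41.5 ± 11.9 in conditioned medium (SD, n = 4 each, log2 fold change −0.45, adjusted p = 0.568, limma), and the difference was −0.21 with conditioned-medium replicate 4 left out. The remaining genes named from these lists, Naca, Eif4b, Nat10, Nop2, Larp4, Eif4ebp1 and Eif4g1, had log2 fold changes from −0.34 to −0.24, or −0.21 to 0.0013 without conditioned-medium replicate 4, and none passed. All conditioned libraries were below all control libraries for 2 of the 19 genes (Eef2 and Eif4b), 2 of the 31 (Nop2 and Ddx21, the latter named after its values were seen) and 1 of the 13 (Larp1), where this held for 1.46% of all genes, and none of the 3 lists had a gene with the conditioned libraries all higher. Without conditioned-medium replicate 4 the medians of the 3 lists were −0.02, −0.07 and 0.05, with 9 of 19, 7 of 31 and 8 of 13 genes positive. For all genes the median was then 0.12 and 76.7% were positive, so the 3 lists stayed below it. In conditioned-medium replicate 4 the median deviations of these 3 lists were −0.46, −0.60 and −0.64, and that of the subunit genes −0.35.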

How the data were processed

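RNA was sequenced from 8 cardiomyocyte libraries. The authors used cutadapt for trimming, HISAT2 for alignment to GRCm38, StringTie for transcript abundance and Ballgown for FPKM, the unit of the deposited gene and transcript tables. For tool versions and the annotation: not given in the sources used here. The gene table lists no gene whose mean is below 0.5 FPKM in both media, and 1 line without an entry in each table was not used. FPKM are relative to all fragments of a library, so a larger share of some transcripts lowers the values of others.

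The media were compared by limma (version 3.58.1, R 4.3.3) on log2(FPKM + 1), with trended variances, two-sided, over all genes and with Benjamini-Hochberg adjustment. Fold changes are on that scale, which understates changes of low genes. Scripts were tested on simulated data. Named genes were the paralogue pairs, the stalk genes, 10 members with well-known roles, the 5 most and least abundant members, those with the 5 highest and lowest fold changes and the 5 smallest p, Rps19bp1, and from each other list the most abundant gene and the 3 smallest p. Rpl4 and the Rps24 and Rpl29 transcripts were added after their values were seen. The members, lists and tests were chosen with earlier results of these data known. Alternatives were another pseudocount (0.1), a filter at 2 FPKM, scalings, weights per library, a block for the replicate number, summed transcripts and left-out libraries. All members (90 of 90) matched GENCODE M21 by identifier, which gave lengths and transcripts. A further list of ribosomal proteins outside the symbol rule is not reported here.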

Additional observations from a re-analysis of the deposited data

Results flagged for a closer look

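Of 98 sets of 4 values (the named genes, the transcript shares, the library shares and the paralogue ratios, in each medium), 12 held 1 library far from the other 3. Chance flags about 1 in 20 such sets, and the sets are not independent, since all come from the same 8 libraries. Conditioned-medium replicate 4 was the far library in 10 of the 12. It was low in FPKM of Rpl3 (92.4), Rpl36 (528), Rpl36al (74.7), Rpl5 (113) and Rps6 (255), in the log2 ratio of Rpl36al to Rpl36a (0.57) and in the share of Rps24-205 (56.2%). It was high in the shares of Rps24-202 (20.5%) and Rps24-210 (17.6%) and in the mitochondrial share of the FPKM sum (63.0%). The other far values were Rpl7a-ps5 at 1.57 FPKM in control replicate 1 and Rpl9-ps6 at 4.38 FPKM in conditioned-medium replicate 1, both entries that share sequence with a main gene.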

How the results depend on the processing

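No member was called in either direction under any of the 18 alternatives, and the smallest adjusted p of a member over all of them was 0.0618, with array weights, where 3 members had an unadjusted p under 0.05, all higher (limma). Array weights called 7.76% of all genes higher and 0.449% lower, against 0.554% and 0.0% without them. The median log2 fold change of the 90 members, −0.07, became 0.04 with equal sums over nuclear-encoded genes (66 of 90 positive), 0.08 with quantile normalization (77 positive), 0.09 with array weights (84 positive) and −0.11 with median-of-ratios factors (11 positive). Array weights and nuclear sums also moved the median of all genes, from 0.02 to 0.12 and 0.10. With 1 library left out the median of the members lay between −0.13 and 0.03. The value of 0.03 was that without conditioned-medium replicate 4, where the median of all genes was 0.12. The median of the members was 0.06 without control replicates 2 and 4 and conditioned-medium replicate 4. Over the alternatives, 120 of 647 values of the named genes changed sign, none of them called. The log2 ratio of Rpl3l to Rpl3 changed sign without control replicates 2 and 4 (0.0092) and without these and conditioned-medium replicate 4 (0.18), and ranged from −0.50 to −0.10 with 1 library left out. That of Rpl7l1 to Rpl7 became −0.079 and −0.12 under the same omissions. With 1 library left out it ranged from −0.058 to 0.075, and that of Rpl36al to Rpl36a from −0.030 to 0.078. The causes were not tested. The sources do not state whether the replicate numbers pair the libraries. Of the 4 correlations between same-numbered libraries, 1 was over 0.1, and so few values, with outlying libraries among them, cannot settle the pairing. With the number as a replicate block the members gave 0 calls and a median of −0.07. Since FPKM give no depth, a limit of detection could not be given, and changes inside the 95% intervals could not be resolved.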
